A study of Arabidopsis thaliana with 24 samples.

Results

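Plastid-encoded genes were followed across genotype and abscisic acid (ABA) treatment in whole seedlings of Arabidopsis thaliana. They were chosen by measured level: of the 133 gene ids starting with ATCG in the deposited files, the 108 with FPKM (fragments per kilobase of exon and 1000000 mapped fragments) of at least 1 in at least 3 libraries are described. The same rule kept 19368 nuclear and 24 mitochondrial ids, so 19500 genes were tested. Of the other 25 ATCG ids, 13 were listed at 0 in every library.

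The 24 libraries came from 4 genotypes in the Columbia 0 accession: wild type (WT), nrp1 nrp2, FyPP3DN, and the combination labelled nrp1 nrp2 FyPP3DN. Each was sampled as a control and after 5 µM ABA for 24 h, with 3 replicates in each of 8 groups. FYPP3 encodes a catalytic subunit of PP6, a protein phosphatase, and DN in the line name stands for dominant negative. The promoter that drives it, the number of lines and the loci of nrp1 and nrp2 are not given in the labels. Age is given as 5 days before the treatment in the sample labels and as 6 days of growth, hence 7 days at harvest, in the design text. Whether replicates were separate cultures is not in the labels, and p-values reflect only how these samples scatter.

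The plastid genome of land plants encodes subunits of the photosynthetic complexes, part of the plastid ribosome, rRNAs, tRNAs and the core of a bacterial-type RNA polymerase. That polymerase works with nuclear-encoded sigma factors and associated proteins and transcribes most photosynthesis genes. A second, phage-type polymerase encoded in the nucleus transcribes, among others, the rpoB operon and accD, which encodes a subunit of acetyl-CoA carboxylase. Mature plastid mRNAs mostly lack the long poly(A) tails of nuclear mRNAs, and the extract protocol names both poly(A) isolation and rRNA removal, with no word on the choice made for a given library.

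The reference used here does not pair ATCG ids with gene symbols. A symbol was therefore used only where the exon length recovered from the steps between low FPKM values matched the length of that gene in RefSeq (TAIR10.1), which held for 76 of the 108 ids. The other 32 are called by their id and given no role: 24 are on none of the gene lists, and 8 are counted in a list by their id alone. The coding sequences of psbM and rpl32 are shown because these genes had the highest FPKM of all plastid ids in the libraries described next. PsbM is a small membrane subunit of photosystem II, and rpl32 encodes a protein of the large ribosomal subunit. Start and stop codons are in capitals. psbM lies on the minus strand at Pltd:28707-28811 and rpl32 on the plus strand at Pltd:113449-113607.
psbM: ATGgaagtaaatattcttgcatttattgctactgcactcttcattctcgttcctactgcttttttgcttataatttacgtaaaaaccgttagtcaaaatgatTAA
rpl32: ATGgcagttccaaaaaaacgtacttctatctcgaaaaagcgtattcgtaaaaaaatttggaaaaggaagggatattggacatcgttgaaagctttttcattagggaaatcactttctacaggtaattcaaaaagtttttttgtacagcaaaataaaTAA
The psbM sequence has 105 bases, of which 69.5% are A or T, and the rpl32 sequence has 159 bases, of which 69.2% are A or T. Both are shorter than the insert of about 300 bp that the protocol gives.

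Depth recovered from the FPKM steps was 16.6 to 29.1 M fragments per library. FYPP3 (AT3G19980) had an FPKM of 34.5 to 85.2 in the FyPP3DN controls and 12.7 to 18.3 in the other controls, including 12.8 to 13.5 where the label reads nrp1 nrp2 FyPP3DN and no rise was seen. With ABA it was at 22.5 to 29.3 in FyPP3DN (24.9 in the rich library) and at 14.8 to 18.4 in the other ABA libraries. AT3G27090, which has no symbol in the reference, was at 12.03 to 21.1 in the 12 libraries with nrp1 nrp2 in their label and at 64.9 to 78.2 in the others. The 8 ABA-responsive genes of a check list all changed with ABA in both kinds of library below, with 6 higher and 2 lower.

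One replicate in each of the 8 groups was rich in plastid transcripts, and these 8 plastid-rich libraries were selected on that measured share, at over 5% of summed FPKM. The plastid ids held 9.61% to 18.8% of summed FPKM in them and 0.0252% to 0.0877% in the 16 plastid-poor libraries. The rich libraries were replicate 1 of each group, except in the FyPP3DN controls, where it was replicate 2. Counted in mapped fragments over the 76 ids with a matched length, the plastid share was 1.77% to 3.30% in the rich libraries (350517 to 731034 fragments). In the poor ones it was 0.00920% to 0.0324%, or 2002 to 9448 fragments. Mitochondrial ids held 0.0318% to 0.0598% of summed FPKM in the rich and 0.00967% to 0.0191% in the poor libraries. In bulk tissue, fewer cells of a type and less RNA per cell cannot be told apart.

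The excess in the rich libraries was unequal over the genes, and is given as a description since it chose the libraries. psbM had an FPKM of 22166 to 44478 in the 8 rich libraries and a median of 3.76 in the 16 poor ones. rpl32 had 12990 to 37188 and a median of 20.05. Together psbM and rpl32 made up 53.02% to 62.2% of plastid FPKM in the rich and 3.35% to 11.6% in the poor libraries. atpE and atpB, which encode the epsilon and beta subunits of the ATP synthase and overlap on the genome, came after them, at the ranks of 3 and 6, with mean FPKM of 9305 and 3553. The ids ATCG00400 and ATCG00390 stood between them at 5703 and 4366. rpl16, rps3 and rpl14, which encode ribosomal proteins and lie next to one another, followed at 3272, 1914 and 1813, and ndhK of the NDH complex at 1218.

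By fragments the order differed, because FPKM divides by exon length. atpB had the most, with a median of 106047 fragments in the rich libraries, followed by rpl32 with 82547, atpE with 80279 and psbM with 75970. In the poor libraries the same genes had medians of 540, 60, 95 and 7 fragments. Across the 76 ids with a matched length, exon length and mean FPKM in the rich libraries had a Spearman correlation of -0.37, and in the poor libraries of -0.13. The ids share libraries and neighbours share transcripts, so these are descriptions.

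Several well-known chloroplast genes showed no excess. psbA, which encodes the D1 protein of photosystem II, had a mean FPKM of 28.03 in the rich and 28.3 in the poor libraries, where it was the highest plastid id. rbcL, the large subunit of Rubisco, had 14.2 and 12.8. The photosystem I gene psaA and the polymerase gene rpoC1 also lay on the line of equal level. In 11 of the 102 ids with a poor level above 0 the rich mean was within 2 times the poor mean, in 70 it was over 10 times, and in 36 over 100 times the poor mean. A further 6 ids were listed at 0 in every poor library. In 91 of the 108 ids every rich library was above every poor one. These counts are a description, since the libraries were split on the summed level of the same ids. Some ids, such as rps19 and accD, reached 1 FPKM in the 8 rich libraries only. The same counts over all genes were not made.

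**Figure D1:**
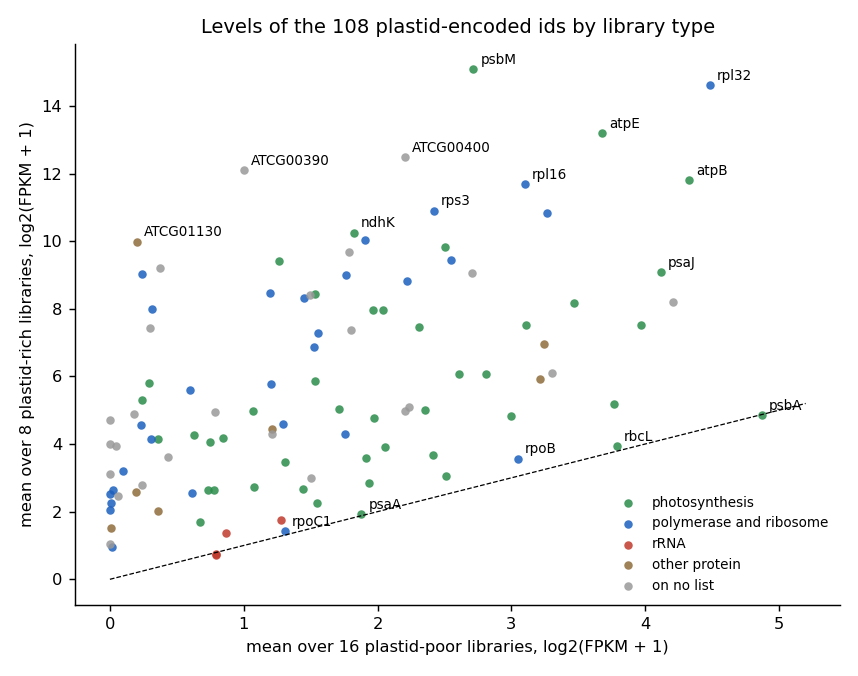
Mean level of each of the 108 plastid-encoded ids, as log2(FPKM + 1), in the 16 plastid-poor (x axis) and the 8 plastid-rich libraries (y axis). Colours give the gene lists and the dashed line marks equal levels. psbM and rpl32 are highest in the rich libraries, and psbA, rbcL, psaA and rpoC1 lie at the line.

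High and low ids were neighbours on the plastid genome. psbM, with a mean FPKM of 34555 in the rich libraries, lay between petN at 182 and psbD at 904. ndhJ, ndhK, ndhC, atpE and atpB formed a stretch with mean FPKM of 345 to 9305, next to rbcL at 14.2. The run from rpoA to rps19, which encodes a polymerase subunit and ribosomal proteins, had means of 154 to 3272. In contrast psaA and psaB, large subunits of photosystem I, were at 2.82 and 6.15 beside rps14 at 1044. Among unmatched ids, ATCG01130 reached a mean of 1015 in the rich and 0.151 in the poor libraries.

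**Figure D2:**
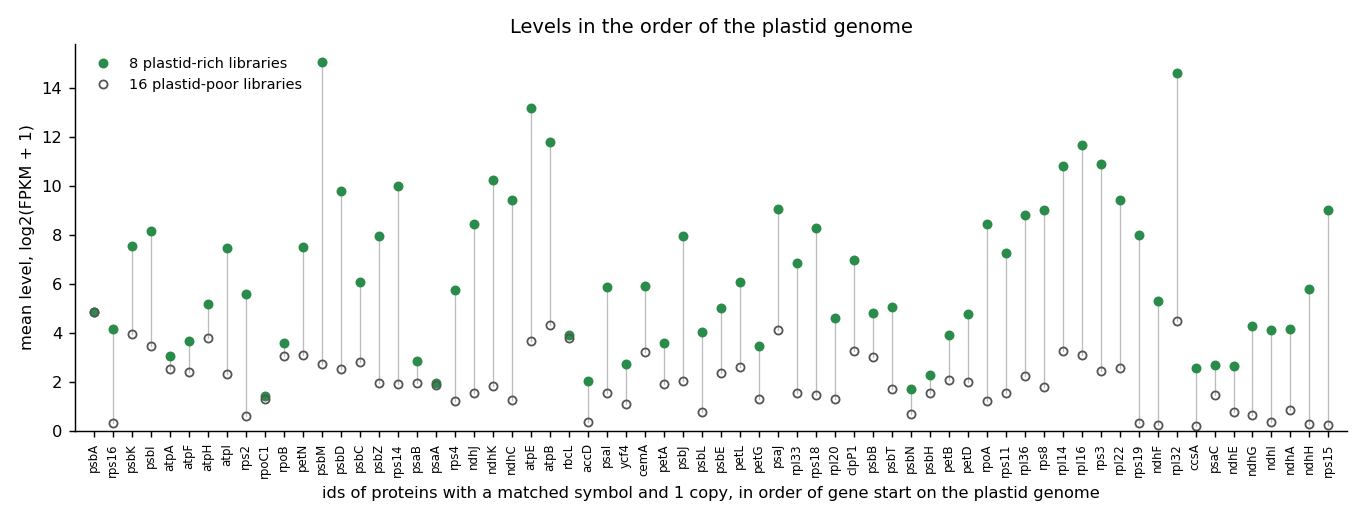
Mean level as log2(FPKM + 1) of the 66 protein-coding ids with a matched symbol and a single copy, in the order of their start on the plastid genome (x axis). Filled points are the 8 plastid-rich and open points the 16 plastid-poor libraries. The tall stretches end at atpB and rps19, and psbM and rpl32 stand apart from their neighbours.

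The question in the rich libraries was whether ABA changed the plastid transcripts as a whole. The plastid share of summed FPKM was lower with ABA in 4 of 4 genotypes. In the controls it was 16.8% in WT, 15.4% in nrp1 nrp2, 18.8% in FyPP3DN and 12.3% in the combination. With ABA it was 11.9%, 12.9%, 14.6% and 9.61% in the same order. The groups overlapped, since the control of the combination lay below the ABA libraries of nrp1 nrp2 and FyPP3DN. The mean was 15.8% ± 2.73 (SD, n = 4) without and 12.3% ± 2.09 (n = 4) with ABA, which did not pass an exact two-sided permutation test (p = 0.0857, smallest possible 0.0286). An exact sign-flip test over the 4 genotype pairs gave p = 0.125, the smallest that 4 pairs allow, so it could not pass. The permutation test ignored the pairing by genotype. Without psbM and rpl32 the share was 7.12% ± 1.14 against 4.92% ± 0.560 (exact permutation p = 0.0571, n = 4 each). Mapped fragments gave 2.88% ± 0.382 against 2.096% ± 0.294 (exact permutation p = 0.0571, n = 4 each).

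In the poor libraries the difference had the opposite sign. The plastid share was 0.0252% to 0.0737% in the 8 controls (median 0.0489%) and 0.0434% to 0.0877% in the 8 ABA libraries (median 0.0680%). The groups overlapped widely, and the exact permutation test gave p = 0.0844 (n = 8 each). Leaving out WT control replicate 2 or nrp1 nrp2 +ABA replicate 2 gave p = 0.0410 and p = 0.0357 by the same exact permutation test, n = 7 against 8, and leaving out FyPP3DN control replicate 1 gave the highest, p = 0.164. The log2 ratio of ABA to control was -0.49, -0.25, -0.36 and -0.36 in the rich libraries of WT, nrp1 nrp2, FyPP3DN and the combination, and -0.24, 0.13, 1.27 and 0.38 in the poor ones. The mean difference between library types was -0.75 on the log2 scale, and the poor FyPP3DN value of 1.27 lay farthest from 0. An exact permutation test over 4 genotype values per type gave p = 0.0286, the smallest that design allows. That test ignored the pairing of the values by genotype, and a sign-flip test over 4 pairs cannot go below 0.125. WT in the poor libraries and nrp1 nrp2 in the rich ones came nearest to each other, at -0.24 and -0.25, and the comparison was chosen after the values were seen.

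**Figure D3:**
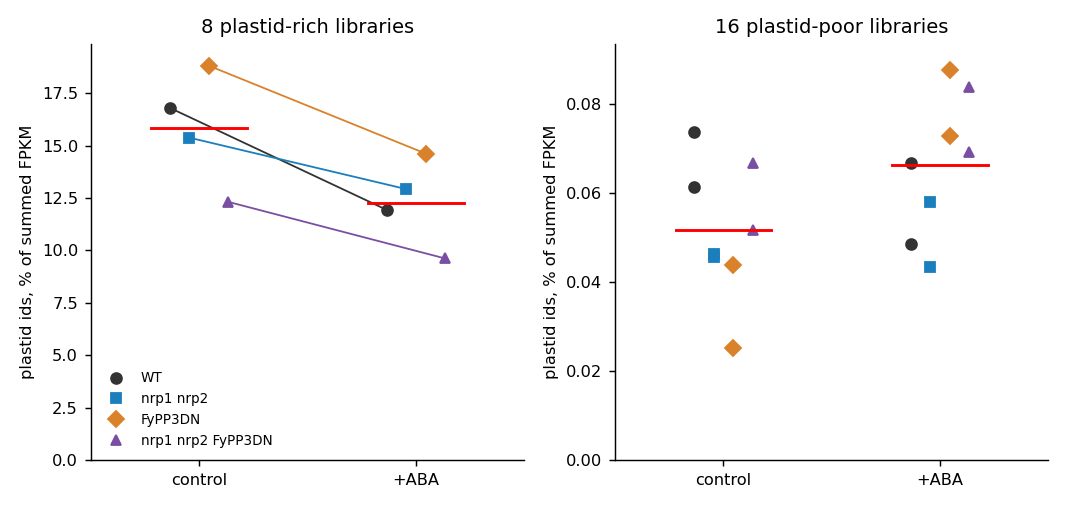
Share of summed FPKM held by plastid-encoded ids in each library, in percent, for controls and ABA; the y axes of the panels differ. Symbols are genotypes, lines join the rich libraries of a genotype, and red bars are group means (15.8% and 12.3% in the rich libraries). All 4 lines fall, and among the poor controls the FyPP3DN libraries are lowest.

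Per gene, 54 of the 108 plastid ids were called lower with ABA in the rich libraries and none higher, in limma on log2(FPKM + 1) with genotype as a covariate (adjusted p under 0.05, Benjamini-Hochberg over 19500 genes). Of all genes tested, 5.02% were called lower and 6.04% higher in that comparison. The members share the summed plastid level of each library, so these calls are not independent of one another. The summed share itself, given above, did not pass a permutation test that ignored genotype, whereas the fit of the genes had a genotype term. Its sign-flip test over 4 pairs could not go below 0.125. The 2 results are therefore not on the same footing. The median log2 difference over the members was -0.56, against 0.0016 over nuclear genes, and 104 of 108 differences were negative. In all 4 genotypes 66 members were lower with ABA, which held for 15.1% of all genes tested, and in 21 every ABA library was below every control, which held for 7.09% of all genes. None was above in every library, which held for 8.27% of all genes. The median over the members was -0.70 in WT, -0.49 in nrp1 nrp2, -0.64 in FyPP3DN and -0.23 in the combination, with 1 pair of libraries each and no test. The count of 54 was 27 when either rich FyPP3DN library was left out (control replicate 2 or +ABA replicate 1), and 35 without either rich library of nrp1 nrp2. It was 17 without the genotype term and 1 when genes with low values were also fitted, where 480 genes in all were called. Over 14 alternative settings, 27 of the 54 members were called in more than 7 and the other 27 in 7 or fewer. Leaving out either rich library of a genotype drops that genotype from the ABA difference, so those 8 settings form near-identical pairs. Leaving out both FyPP3DN libraries repeats 1 such pair. Counts out of 14 therefore hold repeats, here and below.

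**Figure D4:**
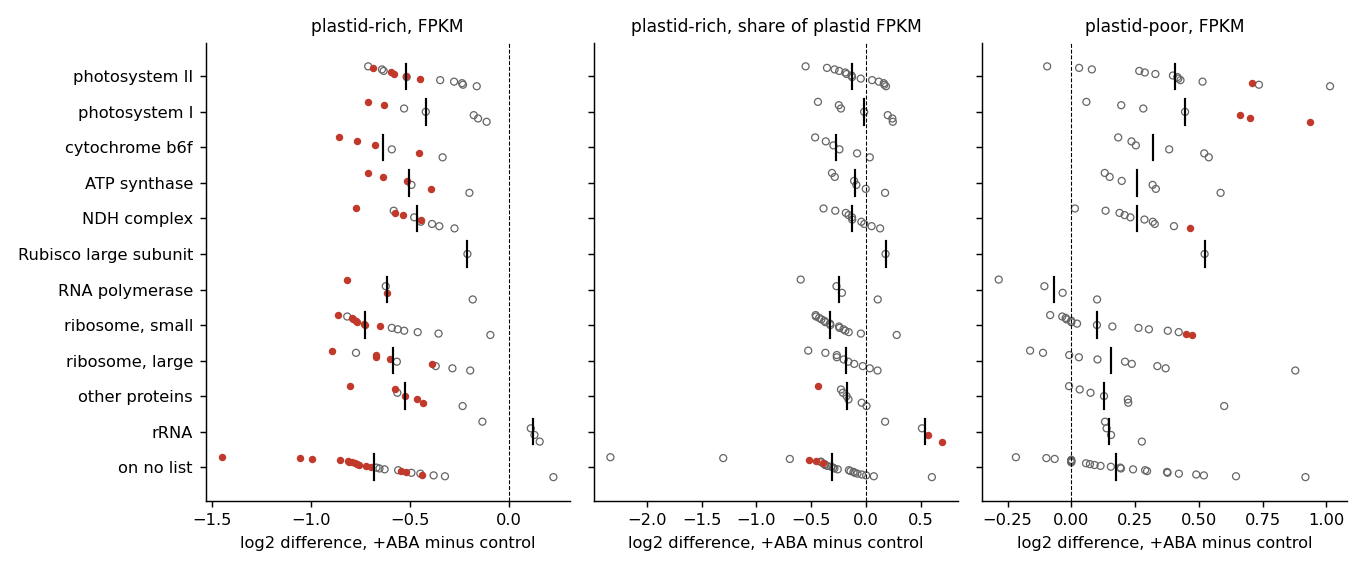
Log2 difference, ABA minus control, of each plastid-encoded id by gene list, in the rich libraries on FPKM (left) and on the share of plastid FPKM (middle) and in the poor libraries on FPKM (right); the x axes differ. Red points passed an adjusted p under 0.05, open points did not, and black bars are list medians. Nearly all points are below 0 on the left, and in the middle 83 of 108 are below 0 and 25 above.

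Of the 14 measured photosystem II genes, 5 fell with ABA in the rich libraries, and the list median was -0.52. psbD encodes the D2 reaction centre protein and had an FPKM of 1242 in WT, 919.5 in nrp1 nrp2, 1350.3 in FyPP3DN and 854 in the combination without ABA. With ABA it was 733, 739.7, 825 and 567. Every ABA library was below every control (log2 -0.59 ± 0.10 SE, limma adjusted p = 0.00711). psbZ, a small subunit, ranged from 229 to 412 in the controls and from 144 to 279 with ABA with overlapping groups (-0.69 ± 0.10, adjusted p = 0.00265). psbM had 41044, 33192, 44478 and 30349 without and 32707, 35243, 37259 and 22166 with ABA, in the same order of genotypes. It was higher with ABA in nrp1 nrp2 and lower in the other 3, and did not pass the test (-0.24 ± 0.19, adjusted p = 0.518). psbA had 26.5 to 38.6 without and 24.2 to 27.9 with ABA (-0.28 ± 0.10, adjusted p = 0.137).

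In the cytochrome b6f list 4 of 6 genes fell, with a median of -0.63. petN, a very small subunit, had 245, 224, 312 and 145 without ABA in WT, nrp1 nrp2, FyPP3DN and the combination, and 135, 143, 145 and 104.5 with ABA. The highest ABA value and the lowest control were nearly equal, and the difference was -0.77 ± 0.11 (adjusted p = 0.00272). petL, another small subunit, had 56.7 to 119 without and 40.6 to 57.8 with ABA (-0.86 ± 0.16, adjusted p = 0.0122). petD, subunit IV of the complex, went from 19.6 to 41.8 down to 14.9 to 26.1 (-0.68 ± 0.11, adjusted p = 0.00531).

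The ATP synthase list had 4 of 6 genes lower, with a median of -0.50. atpI, which encodes a subunit of the membrane part, had 95.6 to 353 without and 72.6 to 260.1 with ABA (-0.71 ± 0.17, adjusted p = 0.0349). atpB had 3464 to 4929 without and 2427 to 3447 with ABA, a difference of -0.51 ± 0.14 with an adjusted p of 0.0486, and its control and ABA libraries did not overlap. The call of atpB held in 3 of 14 alternatives (adjusted p up to 0.295), and that of atpI in 7. atpE, whose gene overlaps atpB so that reads at the junction could count for either, was lower with ABA in 4 of 4 genotypes without passing the test (-0.49 ± 0.15, adjusted p = 0.0725). In the NDH list 4 of 10 measured genes fell, with a median of -0.46. ndhH of that complex had 51.7 to 90.5 without and 18.5 to 60.6 with ABA (-0.77 ± 0.20, adjusted p = 0.0404), called in 6 of 14 alternatives.

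In the photosystem I list 2 of 7 ids fell, with a median of -0.42. ycf4, which encodes an assembly factor of the complex, had 4.87 to 8.75 without and 2.56 to 5.88 with ABA (-0.71 ± 0.17, adjusted p = 0.0323), called in 4 of 14 alternatives. psaA and psaB differed by -0.11 ± 0.14 and -0.18 ± 0.16, and neither passed. rbcL had 12.9, 17.02, 16.8 and 14.7 without and 12.1, 11.8, 13.8 and 14.8 with ABA (-0.21 ± 0.10, adjusted p = 0.244).

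Plastid ribosomal protein genes were measured for both subunits. In the small subunit list 8 of 15 ids fell, with a median of -0.73, and in the large subunit list 5 of 10 fell, with a median of -0.58. rps3 had 2659, 2682, 2619.6 and 1620 without ABA in WT, nrp1 nrp2, FyPP3DN and the combination, and 1119, 1417, 1769 and 1426 with ABA. The combination had the lowest control and the smallest difference, and the fit gave -0.73 ± 0.17 (adjusted p = 0.0249). rps18 ranged from 192 to 717 without and from 134 to 335 with ABA (-0.86 ± 0.16, adjusted p = 0.0119). rpl20 ranged from 18.7 to 40.6 without and from 13.1 to 17.7 with ABA, and its groups did not overlap (-0.89 ± 0.20, adjusted p = 0.0230). rpl32 had 30382, 27442, 37188 and 17637 without and 20648, 24325, 30009.6 and 12990.1 with ABA. It was lower in 4 of 4 genotypes and did not pass (-0.37 ± 0.17, adjusted p = 0.235). rpl16 had -0.57 ± 0.19 (adjusted p = 0.0982), and rpl14 fell by 0.67 ± 0.15 on the log2 scale (adjusted p = 0.0243). rps3 and rpl14 were each called in 5 of 14 alternatives, with adjusted p up to 0.192 and 0.184, whereas rps18 was called in 12.

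Of the polymerase genes, 2 of 4 fell. rpoB, which encodes the beta subunit, had 13.98, 13.7, 15.5 and 9.96 without and 7.26, 7.33, 12.3 and 6.94 with ABA, in the order WT, nrp1 nrp2, FyPP3DN and combination (-0.61 ± 0.11, adjusted p = 0.0101). The id ATCG00170 of the same list had 2.77 to 10.6 without and 2.07 to 5.57 with ABA (-0.82 ± 0.17, adjusted p = 0.0181). rpoC1 was at 1.27 to 2.15 and 1.31 to 1.93 (-0.18 ± 0.13, adjusted p = 0.454). Counting accD, 3 of the 4 listed genes that the nuclear-encoded polymerase transcribes alone were called lower, accD in 3 of 14 alternatives (adjusted p up to 0.154), with a median of -0.54, beside -0.50 over the 44 measured photosynthesis ids.

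Of 7 ids for other proteins 5 fell, with a median of -0.53. ATCG00040, one of them, had the smallest adjusted p of all plastid ids on FPKM, with 24.9, 28.01, 36.3 and 17.1 without and 11.5, 16.5, 19.6 and 11.2 with ABA (-0.80 ± 0.10, adjusted p = 0.00127). clpP1, the catalytic subunit of the Clp protease, had 108 to 185 without and 85.7 to 117 with ABA (-0.58 ± 0.09, adjusted p = 0.0038). Of the 24 ids on no list, 15 fell, with a median of -0.68. ATCG00390 and ATCG00400, the most abundant of them, differed by -0.55 ± 0.12 and -0.72 ± 0.18 (adjusted p = 0.0227 and 0.0395). The groups did not overlap in ATCG00390 and overlapped in ATCG00400, and each was called in 4 of 14 alternatives (adjusted p up to 0.279 and 0.328). The 4 rRNA ids past the filter had 0.38 to 2.99 FPKM in the rich libraries, and none was called, with differences of -0.13 to 0.15.

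**Figure D5:**
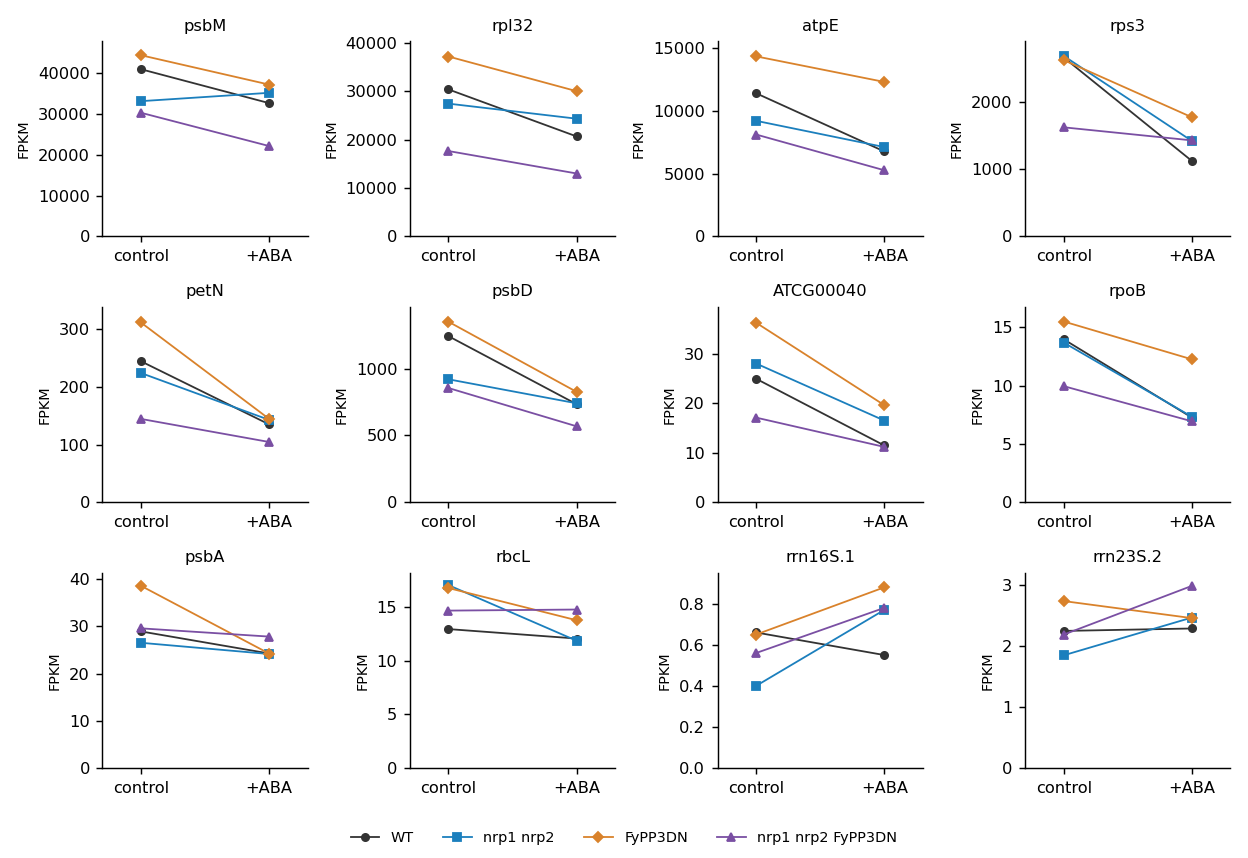
FPKM of 12 plastid-encoded ids in the 8 plastid-rich libraries, with 1 line per genotype from control to ABA; every y axis starts at 0. psbD, petN, ATCG00040 and rpoB fall in all 4 genotypes, whereas psbM rises in nrp1 nrp2 and rrn16S.1 falls in WT only.

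As shares of the plastid FPKM of a library, few members were called. With the same model on log2(share + 1), with shares scaled to a sum of 1000000, 4 members fell and 2 rose with ABA in the rich libraries, while 4.91% of all genes tested were called lower and 5.31% higher. Nuclear genes entered as shares of nuclear FPKM. The median over the members was -0.19, with 83 of 108 differences negative and 25 positive. In all 4 genotypes 17 members were lower and 2 higher, against 16.3% and 14.1% of all genes. The control and ABA libraries did not overlap in 5 members that were lower and 1 that was higher, against 7.68% and 7.31% of all genes. By genotype the median was -0.20 in WT, -0.29 in nrp1 nrp2, -0.27 in FyPP3DN and 0.16 in the combination, where 71 of 108 members were higher with ABA, with 1 pair of libraries each and no test. psbM and rpl32 together held 56.1%, 53.9% and 55.4% of plastid FPKM in the controls of WT, nrp1 nrp2 and FyPP3DN. With ABA they held 61.8%, 62.2% and 60.8%, and in the combination they went from 54.3% to 53.0%. A larger share of these genes leaves less of the sum for the other members. By list the medians ran from -0.32 in the small ribosomal subunit to 0.54 in the rRNAs.

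The members that fell as shares were ids of unmatched symbol at low level. ATCG00040 held 0.0193% to 0.0249% of plastid FPKM without and 0.0133% to 0.0177% with ABA (log2 -0.44 ± 0.09, adjusted p = 0.0120), with no overlap. ATCG00250 held 0.0113% to 0.0201% and 0.00627% to 0.0136% (-0.52 ± 0.12, adjusted p = 0.0267), with an overlap. ATCG00310 and ATCG00370 fell by 0.46 ± 0.11 and 0.39 ± 0.09 on the log2 scale (adjusted p = 0.0270 and 0.0297), lower in 4 of 4 genotypes each. Most of these calls depended on the setting: of 14 alternatives, ATCG00310 and ATCG00370 were called in 3 each (adjusted p up to 0.383 and 0.263), ATCG00250 in 5 (up to 0.262) and ATCG00040 in 11 (up to 0.0872).

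Both members that rose as shares were rRNA ids, and neither was called on FPKM. Mean FPKM in the rich and poor libraries was 0.656 and 0.729 for rrn16S.1, and 2.405 and 1.43 for rrn23S.2. An id of unchanged FPKM rises as a share when the plastid sum falls, and that sum was lower with ABA in 4 of 4 genotypes. How much of the rise this makes was not tested. rrn16S.1 held 0.000355% to 0.000633% without and 0.000637% to 0.00118% with ABA (0.69 ± 0.15, adjusted p = 0.0171), on 10 to 25 fragments per rich library. rrn23S.2 held 0.00164% to 0.00248% and 0.00222% to 0.00451% (0.57 ± 0.11, adjusted p = 0.0118), on 88 to 172 fragments. They were called in 6 and 10 of 14 alternatives, with adjusted p up to 0.123 and 0.121. Each lies in the inverted repeat and has an identical copy under another id. rrn16S.2 and rrn23S.1 differed by 0.51 and 0.18 without passing (adjusted p = 0.273 and 0.342), and the sources do not say how reads were split between copies. psbM, atpE and psbA differed as shares by 0.17, -0.09 and 0.12, with adjusted p of 0.821, 0.869 and 0.574. Their directions were not all stable: atpE was at 0.07 with psbM and rpl32 left out of the plastid total. With that total 4 members were called higher and 1 lower, and the share of all genes called in that fit is not given here.

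For each list, the member with the largest share difference is named here. They were psbN (-0.55), ycf4 (-0.44), petL (-0.46), atpI (-0.31), ndhH (-0.39), rbcL (0.18), ATCG00170 (-0.60), rps18 (-0.46) and rpl20 (-0.53), and none of these passed the test. ATCG00040 and rrn16S.1, given above, were those of the other proteins and the rRNAs.

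In the plastid-poor libraries 37 to 75 of the members reached 1 FPKM in a library. On FPKM 7 members were called higher with ABA there and none lower, with 10.4% of all genes called in each direction. The median difference over the members was 0.22, and 0.0036 over nuclear genes. psaI, a small photosystem I subunit, had 0 to 1.84 in the 8 controls (median 1.15) and 0.91 to 5.44 in the 8 ABA libraries (median 2.78). Its groups overlapped, with a difference of 0.93 ± 0.23 (limma adjusted p = 0.00972). ycf4 had a median of 0.38 without and 1.58 with ABA (0.66 ± 0.19, adjusted p = 0.0207). psbZ had medians of 2.33 and 3.60 (0.71 ± 0.21, adjusted p = 0.0223), and its controls (0.24 to 2.78) lay below its ABA libraries (2.92 to 5.68). psaC of photosystem I, rps18, ndhG and ATCG00065 also rose, by 0.45 to 0.70. Of 20 alternatives, psaI, ycf4 and psaC were called in 20 and psbZ in 19, but rps18 in 8 and ndhG and ATCG00065 in 5 each. The count of 7 was 4 without either replicate 3 of nrp1 nrp2, or without nrp1 nrp2 FyPP3DN +ABA replicate 2. It was 4 with all genes fitted, too.

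As shares of the plastid sum in the poor libraries, 2 members rose and 2 fell, with 9.64% and 10.6% of all genes called higher and lower. The members called lower were rpoC1 and rpoB, and rpoB was called in 6 of 21 alternatives (adjusted p up to 0.141), rpoC1 in 20. rpoC1 held 0.348% to 0.780% of plastid FPKM in the controls (median 0.523%) and 0.185% to 0.525% with ABA (median 0.306%), a difference of -0.88 ± 0.18 (adjusted p = 0.00285), on a median of 61 fragments. rpoB went from a median of 2.45% to 1.59% (-0.51 ± 0.17, adjusted p = 0.0461), on a median of 430 fragments. On FPKM neither was called: rpoC1 differed by -0.28 ± 0.11 (adjusted p = 0.0698) and rpoB by -0.11 ± 0.17 (adjusted p = 0.733). ycf4 rose from a median of 0.112% to 0.361% (1.29 ± 0.33, adjusted p = 0.0107). The other id called higher, ATCG00240, was listed at 0 in all 8 poor controls, and no fold is given.

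Whether the ABA response differed between library types was tested as an interaction over all 24 libraries. On shares no member passed, and the smallest adjusted p was 0.999, with 11 members at an unadjusted p under 0.05, against 786 (4.03%) of all genes. On FPKM 105 of 108 members had a more negative response in the rich libraries (median -0.79, against 0.0042 over nuclear genes). None passed there either (smallest adjusted p = 0.108), with 71 members at an unadjusted p under 0.05, against 909 (4.66%) of all genes. However, 6 members were at 0 in every poor library, and others never reached 1 FPKM there, such as rps15 (at most 0.58). On log2(FPKM + 1) the poor response of such ids is held near 0. Their part of these counts therefore mostly repeats the fit of the rich libraries. No gene of the 19500 was called in either interaction (0%). In a fit over all libraries with library type as a term, 1 member was called higher and 1 lower, with 16.4% and 15.1% of all genes called. psaI was higher by 0.57 ± 0.20 (adjusted p = 0.0315) and rpoC1 lower by 0.25 ± 0.08 (adjusted p = 0.0260).

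Genotype was compared in the rich libraries with ABA as a covariate, 2 libraries against 2, on shares. No member passed in nrp1 nrp2, FyPP3DN or the combination against WT, and 4, 13 and 4 of all genes were called. As percentages, 0.0154%, 0.0462% and 0.0154% were lower, and 0.00513%, 0.0205% and 0.00513% higher. At an unadjusted p under 0.05 the members numbered 5, 29 and 23, and all genes 444 (2.28%), 2014 (10.3%) and 936 (4.8%). On FPKM in place of shares the counts of members were also 0. The smallest adjusted p in FyPP3DN was 0.0926, for ndhI of the NDH complex. The counts of 0 in FyPP3DN and the combination did not hold in every fit with a library left out. Such a fit leaves 1 library in a genotype, so its calls are not given. With 2 libraries per genotype, these counts do not show that the genotypes were alike.

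Nuclear genes for the plastid expression machinery were measured in the same libraries, on FPKM. Of all genes tested, 6.04% were called higher and 5.02% lower with ABA in the rich libraries, and 10.4% in each direction in the poor ones. Of 6 tested sigma factors 1 rose: SIG4 had 41.7 to 47.7 without and 49.3 to 58.4 with ABA (0.29 ± 0.08, adjusted p = 0.0494). SIG1 had -0.32 ± 0.10 (adjusted p = 0.0872). Of 3 phage-type polymerase genes 1 was called lower. RPOTp, a polymerase of plastids, had 24.5 to 29.8 without and 20.8 to 23.3 with ABA (-0.33 ± 0.09, adjusted p = 0.0481). RPOTm, of mitochondria, was at -0.17 ± 0.11 (adjusted p = 0.413), and RPOTmp was not called either. In the poor libraries SIG4 also rose (0.21 ± 0.07, adjusted p = 0.0480), and RPOTp was at -0.23 ± 0.09 (adjusted p = 0.0817). None of 12 polymerase-associated proteins was called, with a median of -0.03. PAP12 was at -0.14 ± 0.08 and PAP9 at 0.14 ± 0.09.

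Among 4 RSH genes, which make or degrade the nucleotide alarmone ppGpp, RSH2 alone rose in both library types. Of all genes, 6.04% were called higher in the rich and 10.4% in the poor libraries. It had 5.99 to 10.1 without and 11.3 to 18.7 with ABA in the rich libraries (0.70 ± 0.10, adjusted p = 0.00371). In the poor ones it had medians of 9.63 and 15.4 (0.66 ± 0.10, adjusted p = 0.000151). RSH1 was at -0.16 ± 0.08 (adjusted p = 0.253).

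Of 32 nuclear genes for subunits of the thylakoid complexes 2 rose and none fell in the rich libraries, where 6.04% of all genes were called higher, with a median of 0.10. The poor libraries had 7 higher and 2 lower, with 10.4% of all genes called in each direction. The 2 lower there were PETM and PETC, subunits of the cytochrome b6f complex, by 0.46 ± 0.09 and 0.28 ± 0.06 on the log2 scale (adjusted p = 0.00160 and 0.00422). Poor-library values of the 7 called higher are not given. In the rich libraries NDHS of the NDH complex had 84.1 to 112 without and 104.5 to 144 with ABA (0.34 ± 0.07, adjusted p = 0.0157). PSBO2 of the oxygen-evolving complex had 480.2 to 700.5 and 629 to 809 (0.33 ± 0.09, adjusted p = 0.0454). None of 4 Rubisco small subunit genes was called there: RBCS1B was at -0.25 ± 0.10 and RBCS3B at -0.12 ± 0.13. RBCS1B fell in the poor libraries by 0.30 ± 0.09 on the log2 scale (adjusted p = 0.0297). Of 32 nuclear genes for plastid ribosomal proteins none was called in the rich libraries, with a median of -0.09, against 5.02% of all genes lower and 6.04% higher. PRPL34 was at -0.26 ± 0.12 (adjusted p = 0.235) and PRPL29 at -0.22 ± 0.11 (adjusted p = 0.256). PRPL17 fell in the poor libraries by 0.22 ± 0.07 on the log2 scale (adjusted p = 0.0432). In the treatment check COR15A rose from 0.95 to 1.35 up to 71.5 to 145 (5.56 ± 0.14), and LTP4 from at most 0.29 up to 53.1 to 101 (6.12 ± 0.17), both with adjusted p = 1.43e-06.

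Level and length were set beside the response in the rich libraries. The 20 ids with a matched length of 1000 bases or more had a median difference of -0.23 on FPKM, with 6 called lower. The 17 from 500 up to that length had -0.53 with 12 called, the 24 from 200 to under 500 bases -0.56 with 13, and the 15 under 200 bases -0.58 with 5. Length went with level: the median in the rich libraries was 9.12 FPKM in the longest class and 184 in the shortest. The longest class also holds the 4 rRNA ids. Length and level were not separated. By mean level, 5 of 12 ids over 1000 FPKM were called lower, 20 of 27 at 100 to 1000, 22 of 40 at 10 to 100, and 7 of 29 at 10 or less. The ids just inside the filter were rrn16S.2, rrn16S.1 and rpl23.2, with a third-highest FPKM of 1.04, 1.08 and 1.31. Those just outside were rpl23.1, ATCG00980 and psbF, at 0.90, 0.68 and 0.43. Besides the rRNAs, 10 members have a listed symbol with 2 entries in the reference, among them rpl2.1, rpl2.2, rps7.1, rps7.2 and rpl23.2. Levels of ids with a second copy are uncertain for that reason. Entries that share a symbol can differ in length, so not each of the 10 need be a full copy.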

How the data were processed

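RNA-seq was done on 24 libraries, 3 in each of 8 groups taken from the labels. Values are FPKM per gene as deposited by the authors, with 2 decimals. Reads were trimmed with Trimmomatic 0.30 and aligned to TAIR10 with HISAT2 2.0.1, per the submitters' processing notes. The counter, its annotation, its strand setting and its handling of reads from repeats are not stated in the sources, so reads of copies, overlapping genes (psbD and psbC, atpE and atpB, rps3 and rpl22, ndhK and ndhC) and antisense genes may be shared.

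Whole-fragment steps in low FPKM values gave the depth (16.6 to 29.1 M fragments), with at least 99.8% of values whole within 0.1. Intervals and floors from such counts would cover counting error only. Genes that reached an FPKM of 1 in 3 or more libraries were fitted with limma 3.58.1 in R 4.3.3 (intensity trend) on log2(FPKM + 1), or on shares of the summed FPKM of the gene's own genome, with Benjamini-Hochberg adjustment over 19500 genes and calls under 0.05. Fold changes of low genes are understated on that scale. Summed shares were tested with exact two-sided permutation tests (SciPy 1.17.1, pandas 2.3.3, NumPy 2.4.6, Python 3.11.15), and figures were drawn with matplotlib 3.10.9. The fits were tested on simulated data.

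Members and gene lists were chosen with earlier results of these data known. Named genes were the 10 members with the highest FPKM in the rich libraries, the members called on shares there, the largest share difference per list, members near the filter, and for each nuclear list the 2 genes with the smallest p. Other members and nuclear genes named per list were chosen after their values were seen. Alternatives changed the pseudocount, filter, trend, scaling, genotype term, plastid total and libraries.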

Additional observations from a re-analysis of the deposited data

Results flagged for a closer look

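In 54 sets of libraries (25 named members by treatment in the rich libraries, and the summed share by treatment in both types), 3 had a library far from the rest, and chance gives about 1 in 20. rps3 was at 1620 FPKM in the rich control of the libraries labelled nrp1 nrp2 FyPP3DN, against 2619.6 to 2682 in the other 3 rich controls. ndhK was at 1456 in the rich FyPP3DN library with ABA, against 958 to 1019.7 in the other 3. ATCG00250 was at 4.16 in the rich library of the combination with ABA, against 11.8 to 13.02.

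The ABA difference in the summed plastid share, on the log2 scale, differed by -0.75 between the rich and the poor libraries. The means were -0.37 and 0.38 over 4 genotypes each (exact permutation p = 0.0286, the smallest possible, with the pairing by genotype ignored). All 4 values were negative in the rich libraries and 3 of 4 were positive in the poor ones. Plastid fragments numbered at least 350517 per rich library and at most 9448 per poor one, and the part of depth or library preparation in the difference was not tested.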

How the results depend on the processing

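The count of 54 plastid ids lower with ABA in the rich libraries was 27 to 49 with a library left out. It was 27 without both FyPP3DN libraries (chosen after seeing the data), which repeats the fits without either of them. Leaving out 1 rich library drops its genotype from the ABA difference, so those fits come in near-identical pairs. The count was 17 without the genotype term and 1 with no filter, and it stayed within 1.5 times of 54 under the other settings. Numbers of all genes called under these settings are not given here, so the counts describe the members alone. On shares the count of 6 was 5 to 8 with a library left out, 3 without the intensity trend, 1 without the genotype term and 0 with no filter, and its members changed: rrn23S.2 and ATCG00040 were called in 10 and 11 of 14 alternatives, the other 4 in 3 to 6. In the poor libraries the FPKM count of 7 was 4 to 10 with a library left out and 4 with no filter. The genotype counts of 0 for FyPP3DN and the combination did not hold in every fit with a library left out, which leaves 1 library in a genotype. The fit over all libraries called 2 members, and 1 with no filter and 1 without the library type term. The ABA difference in the summed share of the poor libraries was 0.0107 to 0.0178 percentage points with a library left out.

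With the replicate block, the fit over all libraries called 4 members, 1 higher and 3 lower. The share of all genes called in that fit is not given here. Once library type was removed, the 3 same-numbered pairs of FyPP3DN (0.223 to 0.415) and the 3 of the combination (0.179 to 0.238) correlated over 0.1, and none of the 6 of WT and nrp1 nrp2 did (-0.427 to 0.0489). Not every pair passed, so the numbers were not taken as pairing.

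Share differences that did not pass the test changed sign for 5 genes. With psbM and rpl32 left out of the plastid total (chosen after seeing the data), atpE was at 0.072, ATCG00390 at 0.019 and atpB at 0.052. With a library left out, atpB ran from -0.29 to 0.053 (without nrp1 nrp2), rpl16 from -0.36 to 0.018 (without WT), and psbN from -1.17 to 0.0030 (without FyPP3DN, also without both its libraries). The causes were not tested. In the poor libraries, single fragments limit the shares of most ids.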

Other observations

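The rich FyPP3DN library with ABA had the most members far from their median share over the 8 rich libraries. There 15 members lay over 1 log2 unit from it, against 6 in the FyPP3DN control, 5 in the combination with ABA and 0 to 3 in the other 5. ndhA of the NDH complex was at 3.99 FPKM in it, rpl36 of the large ribosomal subunit at 103, and psbC, a core antenna protein of photosystem II, at 16.2. Without both FyPP3DN libraries 27 members were called lower with ABA on FPKM, and 5 were called on shares. The share of all genes called in those smaller fits is not given here. The counts therefore do not set the members apart from other genes.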
